A study of Mus musculus with 27 samples.

Results

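Bone marrow-derived macrophages (BMDM) that had received no stimulus (naïve) were compared with BMDM stimulated for 4 h with CpG DNA, a synthetic oligonucleotide ligand of Toll-like receptor 9 (acute CpG). There were 3 naïve and 3 acute CpG cultures, 6 of the 27 samples of a study that also stimulated cells with ligands of other Toll-like receptors (TLR) and re-stimulated cells that had met a ligand before. Both groups were grown for 7 days in L929-conditioned medium from the bone marrow of female C57BL/6 mice aged 6 to 8 weeks, no allele was altered, and the groups differ by the ligand alone as far as the labels say. The labels give the CpG dose as 100 µM and the methods as 1 µM. RNA was labelled with Cy3 and hybridized to 1-colour arrays of 55681 non-control probes. A probe was tested if the scanner software flagged its signal as well above background on 2 or 3 arrays of a group, which held for 27954 probes (50.2%). Levels are log2 expression values as the authors normalized them, and a difference of 1 on this scale is a change of 2-fold.

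TLR9 lies in the endosome and recognizes unmethylated CpG motifs that are common in bacterial and viral DNA. It signals through the adapter MyD88, IRAK kinases and TRAF6 to the NF-κB and MAP kinase pathways, and to interferon regulatory factors. In macrophages this pathway is known for rapid transcription of cytokine and chemokine genes, and for the induction of its own inhibitors, such as the IκB proteins, A20 and the SOCS proteins.

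The cells had the markers of macrophages. All 8 macrophage markers tested, among them Csf1r, Lyz2 and Cd68, were well above background on all 6 arrays, with a mean log2 level of 15.32, 15.34 and 15.15 on naïve replicates 1 to 3 and 14.95, 14.92 and 15.09 on the acute CpG arrays. Of the other markers tested, 4 of 8 for T cells, 3 of 7 for B cells, 2 of 7 for NK cells, 4 of 7 for dendritic cells, 4 of 7 for mast cells and basophils, 3 of 7 for stroma and 3 of 7 for erythroid cells passed the detection filter. All 10 neutrophil markers passed. Their mean level was 11.03 and 11.44 on naïve replicates 1 and 2 and 5.90 on replicate 3, and 11.84, 12.49 and 6.42 on acute CpG replicates 1, 2 and 3. Replicate 3 was thus low in both groups, with Ly6g at 2.54 and 1.82 and Mpo at 2.14 and 3.61, and none of the 10 was called different between the groups. The calls came from a fit without pairing, in which the drop on replicate 3 counted as spread. The SE was 3.95 for S100a9 and 3.00 for Mpo, so such genes could hardly be called. With the replicate number as a block, limma called none either, with lowest adjusted p of 0.0575 (Camp) and 0.0595 (S100a8). The list mean was higher after CpG in each same-numbered pair, and 6 markers had a positive and 4 a negative difference. In bulk RNA, fewer cells of a type and less RNA per cell cannot be told apart. Of 41 markers, 3 were called, against 5.81% of all gene names, and all 3 were higher after CpG: Cd14, Zbtb46 and Pdgfrb. Without acute CpG replicate 1, and likewise without acute CpG replicate 2, 0 markers were called.

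One array stood apart. On naïve replicate 3, 74.6% of probes were well above background, against 43.7% to 49.4% on the other 5 arrays. Over the 2881 probes called without it, its level lay a median of 33.3% of the way from the other naïve arrays to the acute CpG mean. The same measure, over the probes called without the array in question, was 1.47% for naïve replicate 1 (209 probes) and 1.27% for naïve replicate 2 (134 probes). These probes were chosen with naïve replicate 3 in the fit, so the 3 values are not like for like. Why naïve replicate 3 stood apart was not tested. Results are given with all 6 arrays, and without this array where that matters.

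**Figure D1:**
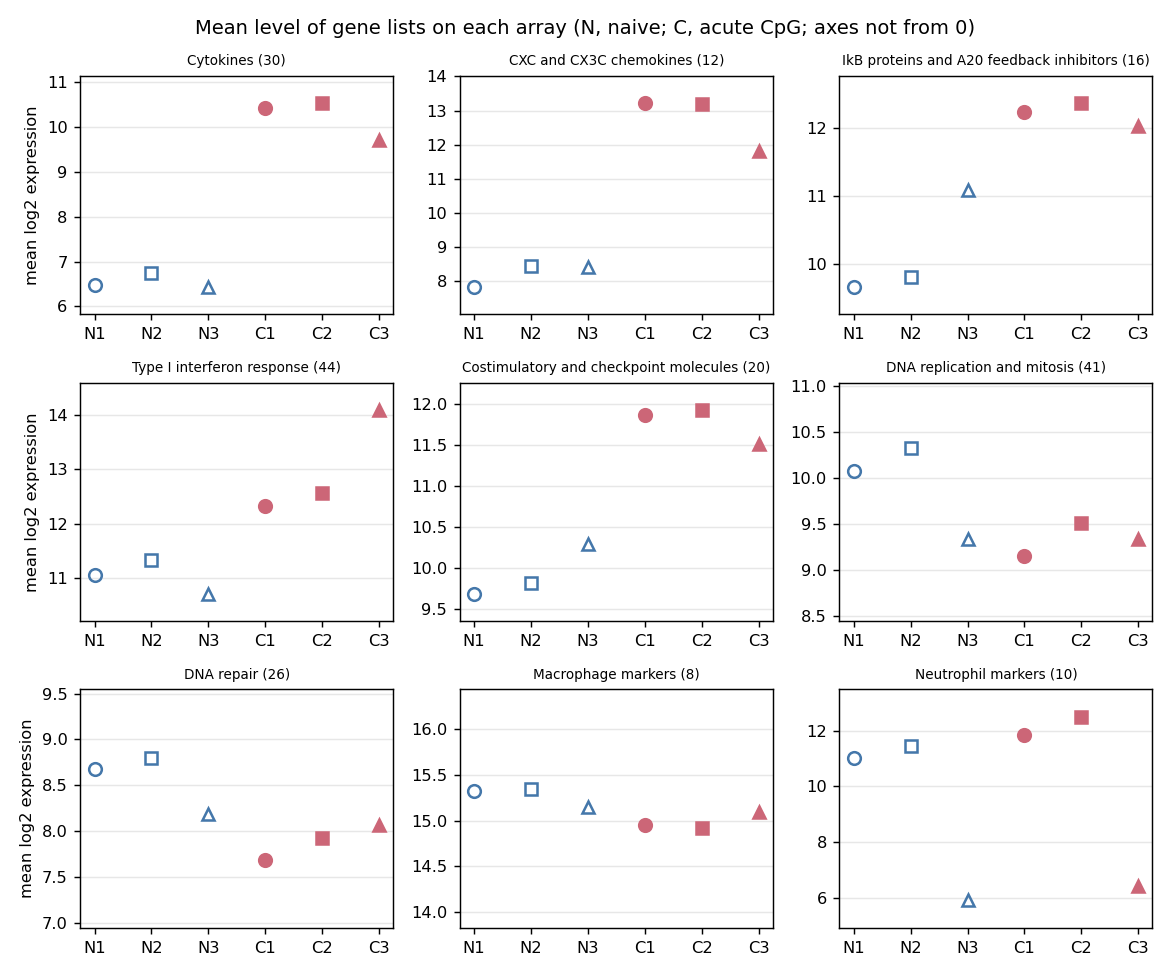
Mean log2 expression of 9 gene lists on each of the 6 arrays (N1 to N3, naïve; C1 to C3, acute CpG; circles, squares and triangles are replicates 1, 2 and 3; number of members tested in parentheses; axes do not start at 0). Cytokine and chemokine means are higher on all 3 CpG arrays than on any naïve array, type I interferon genes are highest on C3 (14.09), and neutrophil markers are low on N3 (5.90) and C3 (6.42).

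Acute CpG changed 1598 of 27954 probes (5.72%), of which 863 rose (3.09%) and 735 fell (2.63%). A call required an adjusted p under 0.05 (limma, Benjamini-Hochberg) and a change of at least 1.5-fold. The called probes carried 1368 distinct names, 711 among those that rose and 658 among those that fell. Rises were larger than falls: the median log2 difference was 2.16 among probes that rose and −1.39 among those that fell, against −0.07 for all probes tested. A change of at least 4-fold was seen for 475 probes that rose and 114 that fell, and one of at least 16-fold for 131 and 2. With 1 probe for each gene name, that with the highest mean level, 1174 of 20197 names were called (5.81%), 596 higher (2.95%) and 578 lower (2.86%), and these shares are the background for the gene lists below. The groups did not overlap for 31.3% of all tested probes, and for all 1598 that were called. The split by direction moved with the scaling, since 54.0% of the called probes were higher with the authors' quantile normalization and 43.1% when the arrays were scaled to their 75th percentile (1058 higher, 1395 lower).

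The number of calls changed with the array left out. It was 209 without naïve replicate 1, 134 without naïve replicate 2, 148 without acute CpG replicate 1, 108 without acute CpG replicate 2 and 1000 without acute CpG replicate 3, and 2881 without naïve replicate 3. Unadjusted p (limma) was under 0.05 for 6477 probes with all 6 arrays, and for 4639 to 5407 in the fits with 108 to 209 calls. A fit with an array left out also has less power, and this was not told apart from the values of that array. With the replicate number as a block 586 probes were called, of which 467 were among the 1598. A set of 92 probes (0.329% of those tested), 81 higher and 11 lower, was called with every array left out in turn and with the block. For a gene with values outside this robust set, the text gives in how many of the 6 fits with 1 array left out it was still called, mostly with the highest adjusted p of the 6 and the array left out. A gene not said to be in the robust set lost its call in at least 1 of these fits or with the block.

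**Figure D2:**
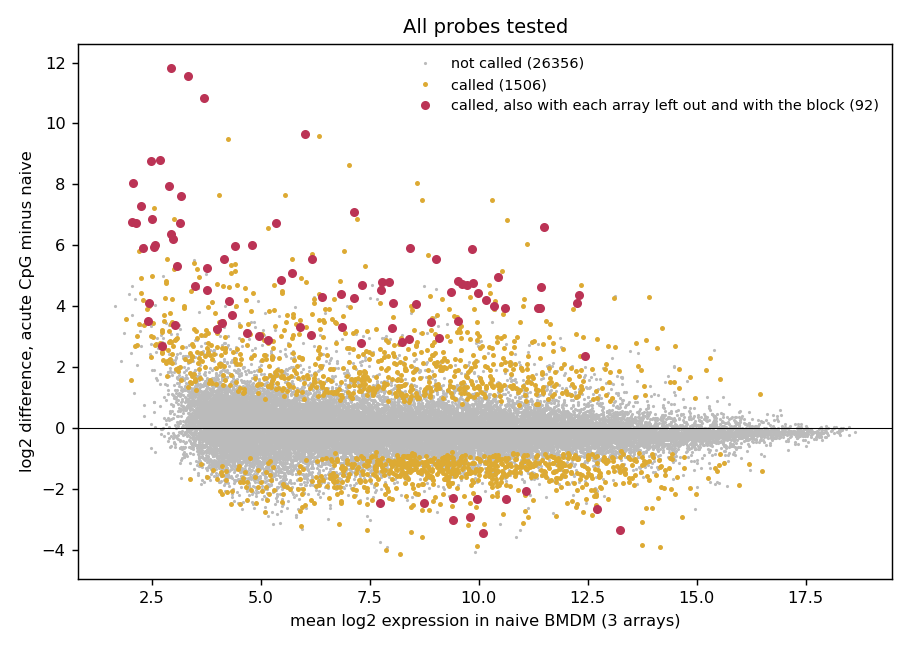
Each point is 1 of 27954 probes, by mean log2 expression in naïve BMDM (x) and log2 difference, acute CpG minus naïve (y). Gray points were not called, yellow points were called with all 6 arrays, and red points are the 92 that were also called with each array left out and with the block. The largest rises belong to probes that were near background in naïve cells, and falls beyond 4 on the log2 scale are few.

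Il6, Il12b and Ptgs2 had the largest rises among the named genes. Il6 encodes a cytokine of fever and the acute phase response. Its probe (chr5:30346367-30346426, mm9) read 2.84, 2.47 and 3.55 on the naïve arrays and 13.89, 14.16 and 16.24 on the acute CpG arrays. It rose by 11.81 ± 0.672 (SE) on the log2 scale (adjusted p = 0.00236). Il12b, the p40 subunit shared by IL-12 and IL-23, read 3.02, 3.88 and 3.11 in naïve cells and 15.14, 14.63 and 14.88 after CpG (chr11:44227121-44227180, mm9). Its difference of 11.55 ± 0.295 had the lower adjusted p of the pair (0.000432), as its 3 CpG arrays lay closer to each other than those of Il6. Ptgs2, the inducible cyclooxygenase of prostaglandin synthesis, read 3.11, 3.1 and 4.86 against 14.64, 14.73 and 14.24 (10.85 ± 0.514, adjusted p = 0.00119; chr1:151954744-151954803, mm9). Groups did not overlap for any of these genes, and all were in the robust set. Each was well above background on 1 naïve array only, as were Edn1, Cxcl3, Ifnb1, Il1a, Csf3 and Fosl1 below, so these differences are against a level near background and their order is not reliable. With the replicate block, adjusted p was 0.0325 for Il6 and Il12b and 0.0342 for Ptgs2.

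The 250 bases before the first RefSeq start site of Il6 and Il12b are shown because these genes had some of the largest rises, with those of Cxcl10 and Sesn1, described below, for a chemokine of the interferon response and for a gene that fell. They are from RefSeq (GRCm38.p6), read 5′ to 3′ on the gene's strand. The windows are chr5:30012864-30013113 (plus strand) for Il6, chr11:44399813-44400062 (plus) for Il12b, chr5:92348890-92349139 (minus) for Cxcl10 and chr10:41810324-41810573 (plus) for Sesn1. Capitals mark matches, searched on both strands, to an NF-κB motif (GGGA, 2 free bases, TTCC), an AP-1 motif (TGANTCA) or an interferon-stimulated response element (GAAA, 2 free bases, GAAA). The motifs were counted separately, whether or not they overlapped.
Il6: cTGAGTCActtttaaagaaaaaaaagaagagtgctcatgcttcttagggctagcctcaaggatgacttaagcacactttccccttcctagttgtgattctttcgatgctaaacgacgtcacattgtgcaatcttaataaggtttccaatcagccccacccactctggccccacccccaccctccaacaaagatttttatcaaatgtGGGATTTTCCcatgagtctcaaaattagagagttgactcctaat
Il12b: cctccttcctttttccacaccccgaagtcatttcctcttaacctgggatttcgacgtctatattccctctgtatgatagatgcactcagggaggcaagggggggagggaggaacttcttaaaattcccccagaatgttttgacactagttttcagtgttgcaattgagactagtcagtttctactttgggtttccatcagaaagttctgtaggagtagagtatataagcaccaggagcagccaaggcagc
Cxcl10: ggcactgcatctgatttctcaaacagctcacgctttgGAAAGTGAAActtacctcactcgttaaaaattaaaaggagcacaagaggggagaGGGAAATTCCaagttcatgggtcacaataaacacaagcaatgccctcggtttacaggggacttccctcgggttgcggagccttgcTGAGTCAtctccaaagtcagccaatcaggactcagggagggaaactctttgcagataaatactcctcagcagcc
Sesn1: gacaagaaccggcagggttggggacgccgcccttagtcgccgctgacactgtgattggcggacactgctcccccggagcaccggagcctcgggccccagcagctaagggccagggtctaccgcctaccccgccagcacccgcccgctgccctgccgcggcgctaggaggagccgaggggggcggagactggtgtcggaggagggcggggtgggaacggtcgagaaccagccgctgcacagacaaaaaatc
In the Il6 window the NF-κB letters begin 44 bases and the AP-1 letters 249 bases before the start site. The Cxcl10 window holds all 3 motifs, at 159 bases (NF-κB), 74 bases (AP-1) and 213 bases (interferon response). The Il12b and Sesn1 windows hold no match to these letters. Windows of the same kind for Ptgs2 and Il1b, also among the largest rises of the robust set, hold no match. That of Edn1, another of these, holds an interferon response match alone. Among 27025 RefSeq promoters of the same length, 1.17% hold the NF-κB letters, 6.87% the AP-1 letters and 3.04% the interferon response letters. A promoter was at hand for 365 of the 596 gene names that rose, too few to give a share over them.

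Among cytokines, 12 of 30 tested genes rose and 0 fell, with a median log2 difference of 3.65 over the list against −0.07 over all probes. Besides Il6 and Il12b these were Il1b, Il1a, Tnf, Ifnb1, Edn1, Il19, Il36g, Csf3, Il27 and Il15. Il1b, an inflammasome substrate, read 4.70, 6.71 and 6.64 in naïve cells and 16.14, 16.57 and 14.28 after CpG (9.65 ± 0.798, adjusted p = 0.00623). Edn1, the vasoconstrictor endothelin 1, read 2.17, 2.46 and 2.81 against 11.17, 11.93 and 10.67 (8.78 ± 0.365, adjusted p = 0.000891). Both were in the robust set, as was Il27, a subunit of IL-27, at 9.54, 9.76 and 9.32 against 13.31, 12.95 and 12.91 (3.52 ± 0.212). Il27 was chosen after its values were seen, as a member of that set.

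Tnf, the gene of tumor necrosis factor, was already at 13.44 on naïve replicate 3, while replicates 1 and 2 were at 9.0 and 9.53. After CpG it read 17.34, 17.09 and 18.05. Its difference of 6.84 ± 1.17 had an adjusted p of 0.0317, which became 0.0535 with the replicate block. It kept its call in 1 of the 6 fits with an array left out, that without naïve replicate 3 (8.23, adjusted p = 0.00167), and the highest adjusted p was 0.12 without naïve replicate 2. Ifnb1, the gene of interferon β, read 3.13, 2.95 and 2.93 in naïve cells. After CpG it was at 9.05, 8.30 and 12.25, so that replicate 3 was the highest by over 3 log2 units (6.86 ± 0.994, adjusted p = 0.0233; 0.0562 with the block; called in 2 of 6, highest 0.10 without naïve replicate 2). Il1a rose by 4.64 ± 0.891 (adjusted p = 0.0409; 0.0925 with the block; 0.0593 with 75th percentile scaling; called in 2 of 6, highest 0.145 without acute CpG replicate 2). Csf3, a growth factor of granulocytes, rose by 3.77 ± 0.493 (adjusted p = 0.0189; 0.077 with 75th percentile scaling; called in 1 of 6, highest 0.0895 without acute CpG replicate 2).

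Other cytokine genes were not called. Il10, an anti-inflammatory cytokine, read 4.73, 5.49 and 8.45 against 10.63, 11.02 and 9.89, a difference of 4.29 ± 0.972 (adjusted p = 0.0617). The groups did not overlap, but the naïve arrays spanned more than 3 log2 units. Without naïve replicate 3, the highest of them, Il10 was called higher (5.40, adjusted p = 0.00398). Il23a, the p19 subunit of IL-23, differed by 1.95 ± 0.578 (adjusted p = 0.112, and 0.0498 with the block). Il12a was well above background on too few arrays to be tested.

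Of the chemokines of the CXC and CX3C families, 6 of 12 tested genes rose and 0 fell (median log2 difference 4.65), and 3 were called higher with the block. Cxcl1, Cxcl2 and Cxcl3 encode ligands of the neutrophil receptor CXCR2. Cxcl1 read 4.22, 5.73 and 9.10 on the naïve arrays and 16.36, 16.10 and 15.39 after CpG (9.60 ± 1.20, adjusted p = 0.0177). Cxcl3 read 2.90, 4.10 and 5.76 against 15.10, 15.13 and 10.96 (9.48 ± 1.32, adjusted p = 0.0216), and Cxcl2 rose by 8.65 ± 1.18 (adjusted p = 0.0206). For all 3 genes naïve replicate 3 was the highest of the naïve arrays. None of the 3 calls held with the block (adjusted p = 0.0559, 0.0673 and 0.0531 for Cxcl1, Cxcl3 and Cxcl2). They held in 3, 2 and 1 of the 6 fits with an array left out, with highest adjusted p of 0.0874 and 0.0963 without acute CpG replicate 2 for Cxcl1 and Cxcl3 and 0.0947 without naïve replicate 2 for Cxcl2.

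Cxcl10 and Cxcl9 encode interferon-inducible ligands of CXCR3. Cxcl10 read 6.89, 8.89 and 9.96 in naïve cells and 15.99, 15.89 and 17.97 after CpG (8.04 ± 0.927, adjusted p = 0.014; 0.0342 with the block; called in 3 of 6, highest 0.0702 without naïve replicate 2). Cxcl9 was not well above background on any naïve array and read 9.15, 8.70 and 10.21 after CpG, at least 104-fold higher (adjusted p = 0.00459). Such a bound sets the CpG mean against the lowest signal well above background on each naïve array, or the probe's own level there where that was higher. It holds for the authors' normalized values and is no limit under other processing. Over all settings fitted, the smallest log2 difference of Cxcl9 was 3.39. Cxcl9 and Cx3cl1, at 7.69, 8.11 and 8.22 against 10.99, 11.72 and 11.22 (3.30 ± 0.267), were in the robust set and were named after their values were seen. Cxcl5 was not called. Its probe read 10.52 and 10.68 on acute CpG replicates 1 and 2 but 3.79 on replicate 3, against 2.24, 2.44 and 2.31 on the naïve arrays (6.00 ± 1.85, adjusted p = 0.121). It was well above background on 2 CpG arrays and on no naïve array. No bound is given, since the CpG mean does not describe replicate 3.

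Of the CC chemokines, 6 of 12 tested genes rose and 0 fell (median log2 difference 3.21). Ccl5, a chemoattractant of T cells and monocytes, had an already high level in naïve cells, 11.33, 11.92 and 11.27, and read 18.14, 18.19 and 18.00 after CpG (6.60 ± 0.234, adjusted p = 0.000891; chr11:83339296-83339355, mm9). Ccl12, a monocyte chemoattractant, read 4.62, 5.60 and 5.84 against 11.40, 12.03 and 12.85 (6.74 ± 0.481, adjusted p = 0.00431). Both were in the robust set. Ccl4 rose by 4.29 ± 0.437 (adjusted p = 0.0104; 0.038 with the block; called in 3 of 6, highest 0.068 without acute CpG replicate 2) and Ccl3 by 4.27 ± 0.648 (adjusted p = 0.0255; 0.0609 with the block; called in 1 of 6, highest 0.109 without acute CpG replicate 2). Ccl17 and Ccl9 were also called higher, in 3 and 2 of 6 fits, and Ccl9 not with the block (adjusted p = 0.0653). Ccl2, at 10.61, 12.34 and 11.10 against 13.24, 13.89 and 15.23 (2.77 ± 0.649, adjusted p = 0.0664), and Ccl8 (1.27 ± 0.773, adjusted p = 0.39), whose groups overlapped, were not called. Of 14 chemokine receptor genes tested, Ccrl2, an atypical receptor, was the one called (3.5 ± 0.299, adjusted p = 0.00666), and it was in the robust set.

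**Figure D3:**
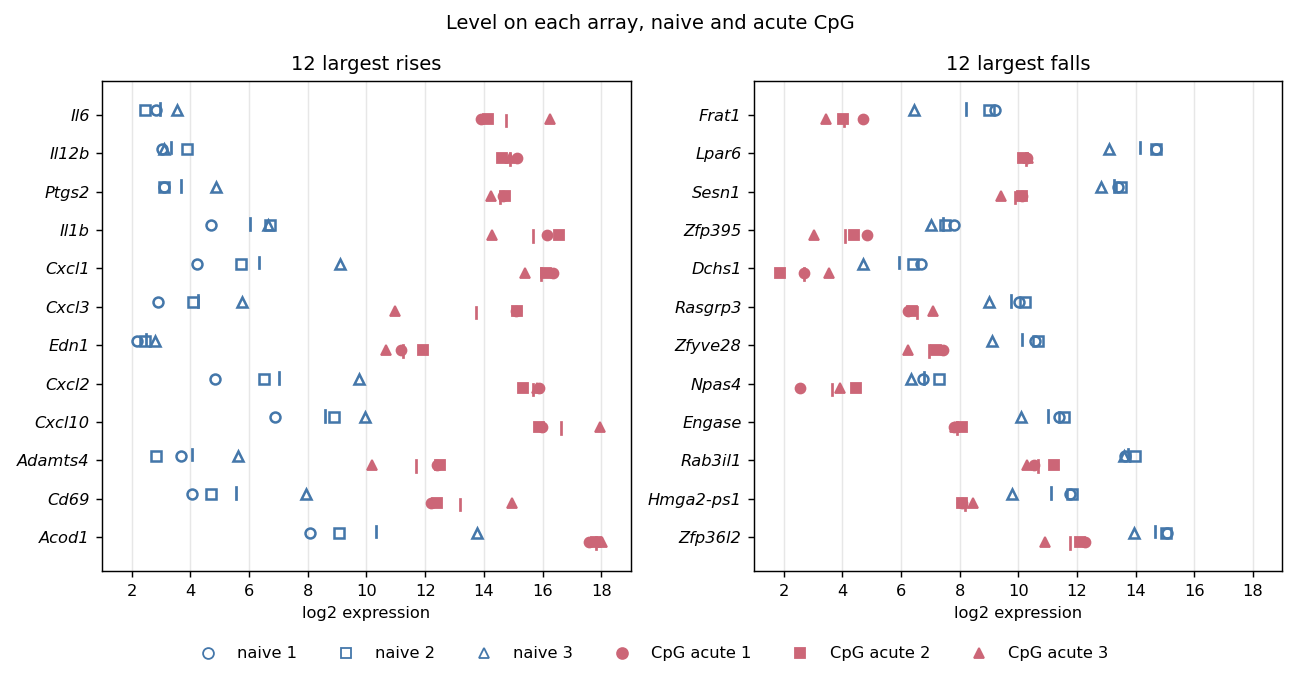
Log2 expression on each array (x) for the 12 named genes with the largest rise (left) and the largest fall (right). Open blue symbols are naïve and filled red symbols acute CpG cultures, circles, squares and triangles are replicates 1, 2 and 3, and short lines are group means. The groups do not overlap for any of the 24 genes, and for Cxcl1, Cxcl2, Cd69 and Acod1 the naïve triangle lies to the right of the other naïve symbols.

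Genes of the pathway's own feedback rose too. Among IκB proteins, A20 and related inhibitors, 7 of 16 tested genes rose and 0 fell, with a median log2 difference of 2.14. Nfkbia, which encodes IκBα, read 13.37, 13.69 and 15.53 in naïve cells and 17.36, 17.75 and 17.36 after CpG (3.29 ± 0.576, adjusted p = 0.0332; 0.0674 with the block; called in 1 of 6, highest 0.13 without acute CpG replicate 2). Tnfaip3, which encodes A20, read 10.41, 10.64 and 11.98 against 15.04, 15.26 and 14.76 (4.01 ± 0.443, adjusted p = 0.013; 0.0514 with the block; called in 3 of 6, highest 0.0756 without acute CpG replicate 2). In both genes naïve replicate 3 was the highest naïve array. Nfkbie, the gene of IκBε, rose by 3.49 ± 0.359 (adjusted p = 0.0107; called in 3 of 6, highest 0.0683 without acute CpG replicate 2). Bcl3, an atypical IκB protein, read 14.96, 15.32 and 13.38 after CpG, and its groups overlapped, since naïve replicate 3 lay above acute CpG replicate 3 (1.95 ± 0.771, adjusted p = 0.202). Without naïve replicate 3, 11 of the 16 inhibitors were called higher, and with the block 4.

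NF-κB subunit and IKK kinase genes gave 3 of 11 higher and 1 lower (median log2 difference 1.10), and with the block 1 higher and 0 lower. Nfkb1, the p105 precursor of p50, read 9.61, 9.91 and 10.55 against 12.70, 12.68 and 12.59 (2.63 ± 0.272, adjusted p = 0.011; 0.0475 with the block; called in 3 of 6, highest 0.07 without acute CpG replicate 2). Nfkb2, the p100 precursor of p52, rose by 2.82 ± 0.339 (adjusted p = 0.0156; 0.0556 with the block; called in 2 of 6, highest 0.0853 without acute CpG replicate 2) and Relb by 1.98 ± 0.326 (2 of its 3 probes called; adjusted p = 0.0299; 0.0688 with the block; called in 1 of 6, highest 0.123 without acute CpG replicate 2). Rela, the p65 subunit, differed by 1.10 ± 0.234 and was not called (adjusted p = 0.0529). Map3k14, the kinase NIK of the non-canonical pathway, fell by 1.4 ± 0.228 (adjusted p = 0.0288; 0.0619 with the block; called in 1 of 6, highest 0.123 without acute CpG replicate 2).

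The receptor itself was not called. Tlr9 read 10.87, 10.94 and 10.48 in naïve cells and 10.41, 10.27 and 10.03 after CpG (−0.53 ± 0.212, adjusted p = 0.208), and Unc93b1, the chaperone that carries TLR9 to the endosome, had a difference of −0.35 ± 0.193 (adjusted p = 0.347), which turned to 0.12 with 75th percentile scaling. Of 21 genes of the receptor and of MyD88 signaling, 2 rose and 1 fell, against 2.95% and 2.86% of all gene names. These were Irak2, a kinase of the receptor complex, at 12.91 ± 0.0944 (SD, n = 3) against 13.98 ± 0.0836 (1.07 ± 0.164, adjusted p = 0.0259; 0.0595 with the block; called in 2 of 6, highest 0.12 without acute CpG replicate 2), Ticam2, an adapter of TLR4 (2.30 ± 0.404, adjusted p = 0.0333; 0.0605 with the block; called in 1 of 6, highest 0.13 without acute CpG replicate 2), and Tab1, a partner of the kinase TAK1, which fell by 1.63 ± 0.215 (adjusted p = 0.0191; called in 2 of 6, highest 0.0996 without acute CpG replicate 2). Among the other Toll-like receptor genes and Cd14, 3 of 12 rose and 0 fell, and with the block 0 rose and 1 fell. Tlr2, the receptor of bacterial lipoproteins, read 11.66, 12.17 and 13.32 against 15.84, 15.81 and 14.45 (2.98 ± 0.566, adjusted p = 0.0401; 0.102 with the block; called in 2 of 6, highest 0.146 without acute CpG replicate 2), and Tlr6 rose by 1.39 ± 0.184 (adjusted p = 0.0192; 0.0514 with the block; called in 2 of 6, highest 0.101 without acute CpG replicate 2). Cd14, the co-receptor of LPS, rose by 1.62 ± 0.247 (adjusted p = 0.0257; 0.0654 with the block; called in 2 of 6, highest 0.112 without naïve replicate 2).

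Of 28 AP-1, ATF and immediate early genes, 6 rose and 0 fell (median log2 difference 0.38), and with the block 3 rose and 2 fell. Maff, a small Maf protein, read 5.73, 5.73 and 5.72 on the naïve arrays and 10.53, 10.74 and 11.15 after CpG (5.08 ± 0.213, adjusted p = 0.000891). Fosl1, which encodes FRA1, rose by 2.74 ± 0.362 (adjusted p = 0.0192; 0.0575 with the block; called in 3 of 6, highest 0.0879 without acute CpG replicate 2) and Junb by 2.14 ± 0.244 (adjusted p = 0.0137; called in 2 of 6, highest 0.0817 without acute CpG replicate 2). Dual-specificity phosphatases switch MAP kinases off, and 2 of 12 of their genes rose and 1 fell. Dusp2 read 8.80, 8.65 and 9.62 against 14.26, 15.02 and 14.45 (5.55 ± 0.344, adjusted p = 0.00287), and Dusp16 rose by 2.95 ± 0.196 (adjusted p = 0.00342). Dusp2, Dusp16 (1 of its 2 probes called) and Maff were in the robust set. Among 21 MAP kinase genes 3 rose and 1 fell (0 and 1 with the block), the latter Map3k1 (−2.03 ± 0.264, adjusted p = 0.0185; called in 2 of 6, highest 0.0857 without naïve replicate 2).

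Of 44 genes of the type I interferon response, 11 rose and 0 fell (median log2 difference 1.65), and 40 had a positive difference. The mean level of the list was 11.06, 11.34 and 10.72 on the naïve arrays and 12.33, 12.56 and 14.09 on the acute CpG arrays, so replicate 3 was the highest after CpG. Gbp5, a guanylate-binding protein, was the gene of the list in the robust set, at 6.61, 7.31 and 7.49 against 13.83, 13.70 and 15.15 (7.09 ± 0.461, adjusted p = 0.0034; 1 of its 2 probes called). Isg15, a ubiquitin-like modifier, read 14.04, 14.26 and 13.96 against 16.27, 16.05 and 17.78 (2.61 ± 0.474, adjusted p = 0.0354; 0.0733 with the block; called in 2 of 6, highest 0.122 without naïve replicate 2). Rsad2, the antiviral protein viperin, read 11.15, 11.50 and 10.47 against 14.29, 14.24 and 17.31 (4.24 ± 0.875, adjusted p = 0.0491; 0.0973 with the block; called in 1 of 6, highest 0.137 without naïve replicate 2). Acute CpG replicate 3, which also had the highest Ifnb1, was over 1 log2 unit above the other CpG arrays for both genes.

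Genes of the list that were not called could read highest on that array too. Ifih1, the RNA sensor MDA5, read 11.39, 11.56 and 10.89 against 12.60, 12.51 and 15.01 (2.09 ± 0.699, adjusted p = 0.146). Usp18, an inhibitor of interferon signaling, read 11.90, 12.09 and 11.90 against 12.70, 13.21 and 15.17 (1.73 ± 0.632, adjusted p = 0.174). Zbp1 (1.39 ± 0.44, adjusted p = 0.13) and Dhx58 (0.53 ± 0.45, adjusted p = 0.547) of the list were not called either, nor were Nlrc5 (1.22 ± 0.44, adjusted p = 0.17), Azi2 (0.75 ± 0.344, adjusted p = 0.259) and Il18bp (0.42 ± 0.288, adjusted p = 0.442), which are in other lists or none. With the replicate block 3 of the 44 were called, and without naïve replicate 3 there were 8. Among 9 interferon regulatory factor genes Irf1 rose, from 12.74, 13.10 and 13.03 to 15.29, 15.35 and 16.36 (2.71 ± 0.333, adjusted p = 0.0163; called in 2 of 6, highest 0.0774 without naïve replicate 2), and Irf8 had a difference of −1.44 ± 0.337 that was not called (adjusted p = 0.0665), and was called lower without naïve replicate 3 (−1.79, adjusted p = 0.01).

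Of 20 costimulatory and checkpoint genes, 9 rose and 0 fell (median log2 difference 1.51), with the block 3 rose, and without acute CpG replicate 2 none was called. Cd40, the receptor for T cell help, read 6.10, 6.91 and 8.65 in naïve cells and 14.33, 14.41 and 13.48 after CpG (6.86 ± 0.674, adjusted p = 0.00957; called in 3 of 6, highest 0.0626 without acute CpG replicate 2). Cd69, an early activation marker, read 4.04, 4.70 and 7.92 against 12.20, 12.42 and 14.96 (7.64 ± 1.22, adjusted p = 0.0282; called in 1 of 6, highest 0.113 without naïve replicate 2). The adhesion molecules Icam1 (3.73 ± 0.663, adjusted p = 0.0341; 0.0794 with the block; called in 1 of 6, highest 0.133 without acute CpG replicate 2) and Vcam1 (3.74 ± 0.508, adjusted p = 0.0206; 0.0617 with the block; called in 2 of 6, highest 0.0923 without naïve replicate 2) rose by like amounts. In the TNF superfamily 4 of 23 genes rose and 0 fell, Cd40 among them. Tnfsf9, the ligand of 4-1BB, read 7.23, 7.68 and 8.41 against 12.77, 12.96 and 11.96 (4.79 ± 0.403, adjusted p = 0.00649) and was in the robust set. None of the 18 genes of MHC class I presentation and none of the 10 of MHC class II was called by limma, with medians of 0.33 and 0.16.

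Enzymes and carriers of arginine, nitric oxide and itaconate metabolism were higher in 7 of 12 tested genes and lower in 0 (median log2 difference 2.37). Acod1, which makes itaconate (Irg1 on the array), read 8.09, 9.08 and 13.77 in naïve cells and 17.59, 17.83 and 18.03 after CpG. Naïve replicate 3 lay nearer the CpG arrays than the other naïve arrays did, and the call (7.5 ± 1.43, adjusted p = 0.0405) was lost with the block (0.0648) and held in 1 of 6 fits (highest 0.141 without naïve replicate 2). Nos2, the inducible nitric oxide synthase, read 7.05, 7.28 and 7.88 against 12.73, 13.69 and 11.71 (5.31 ± 0.529, adjusted p = 0.00977; 0.0492 with the block; called in 4 of 6, highest 0.0591 without acute CpG replicate 1). Slc7a11, the cystine carrier, read 6.97, 6.12 and 6.95 against 11.60, 10.95 and 10.25 (4.25 ± 0.419, adjusted p = 0.00957; called in 5 of 6, highest 0.0629 without acute CpG replicate 2), and the arginine carrier Slc7a2 rose by 4.45 ± 0.642 (adjusted p = 0.0233; called in 2 of 6, highest 0.103 without acute CpG replicate 2).

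Inflammasome genes moved both ways, 3 of 14 higher and 2 lower, and 1 each way with the block. Nlrp3, the sensor of the inflammasome that processes IL-1β, read 5.68, 5.45 and 5.27 in naïve cells and 10.40, 10.55 and 10.07 after CpG (4.87 ± 0.215, adjusted p = 0.000891; chr11:59379981-59380040, mm9). It was in the robust set, and both of its probes were called. The ATP-gated channel gene P2rx7 read 12.41, 12.77 and 12.23 against 11.01, 10.73 and 10.12, and fell by 1.85 ± 0.293 (adjusted p = 0.0277; 0.0514 with the block; called in 2 of 6, highest 0.113 without naïve replicate 2; 1 of its 3 probes called). Nlrp10 was not well above background on any CpG array and was at least 4.01-fold lower (adjusted p = 0.0152; called in 2 of 6, highest 0.0795 without naïve replicate 2). Glycolysis and hypoxia response genes gave 2 of 24 higher and 0 lower, Slc2a1 (1.83 ± 0.359, adjusted p = 0.0432; 0.092 with the block; called in 2 of 6, highest 0.155 without naïve replicate 2) and Hif1a (1.41 ± 0.238, adjusted p = 0.0309; 0.0601 with the block; called in 2 of 6, highest 0.127 without naïve replicate 2).

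**Figure D4:**
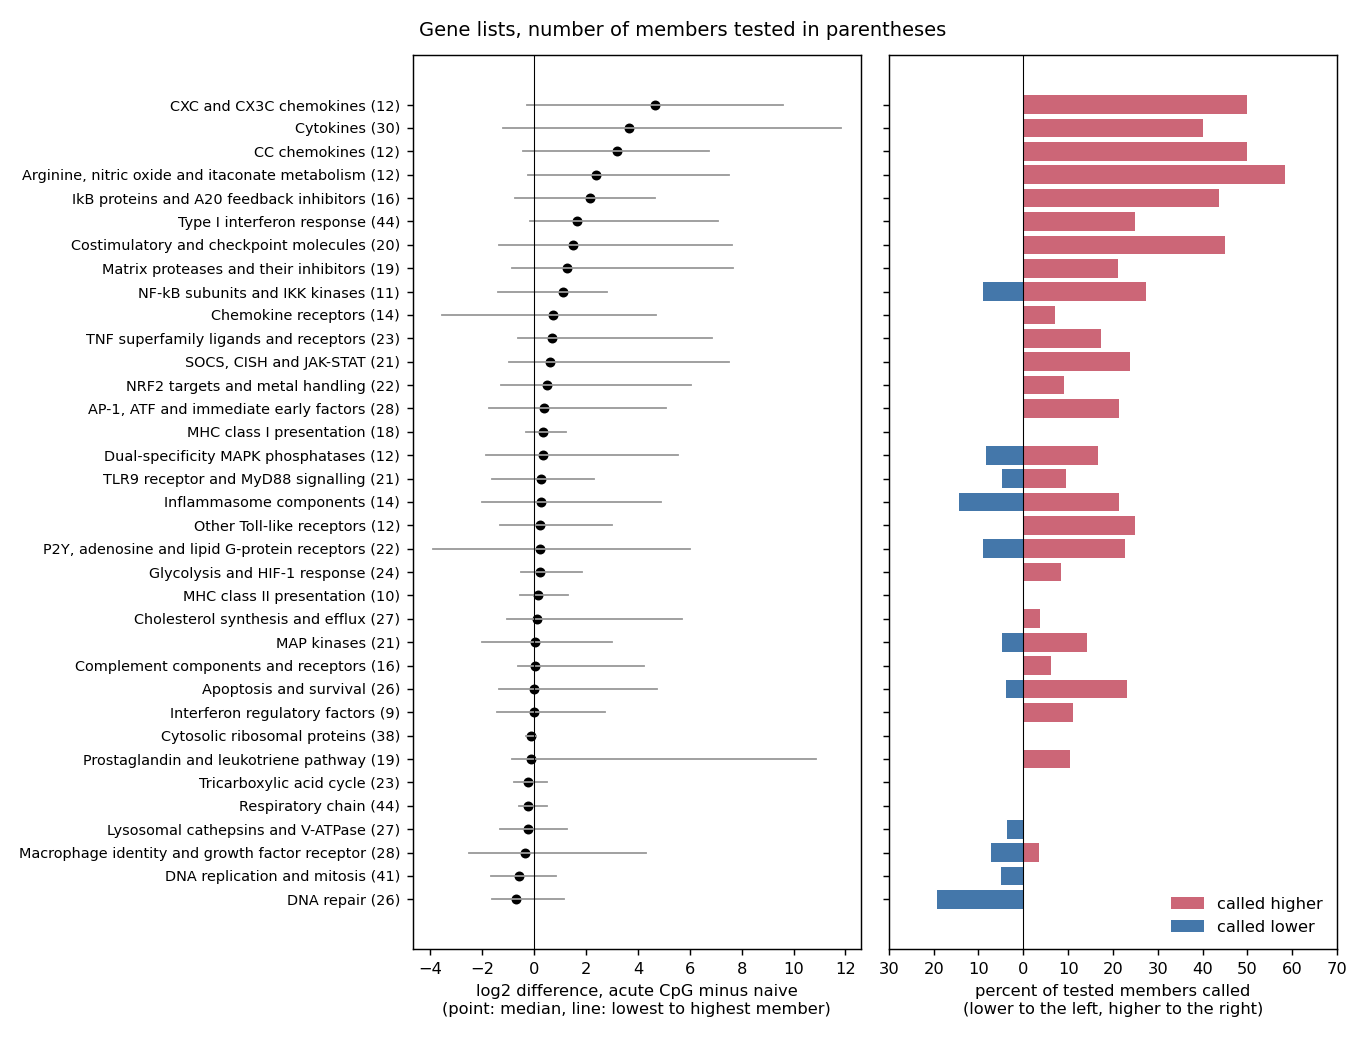
The 35 gene lists, ordered by median, with the number of members tested in parentheses. Left, log2 difference, acute CpG minus naïve (point, median; line, lowest to highest member); right, percent of tested members called lower (blue) and higher (red). Chemokine and cytokine lists lie at the top (medians 4.65, 3.65 and 3.21), and the DNA repair list has the lowest median (−0.69).

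The falls were smaller and less robust. Sesn1, a stress-inducible protein known as a p53 target, read 13.41, 13.50 and 12.83 in naïve cells and 10.12, 10.14 and 9.42 after CpG (chr10:41628012-41628071, mm9). It fell by 3.35 ± 0.30 (adjusted p = 0.00752) and was the gene with the largest fall in the robust set, in which Dbp, a circadian transcription factor, fell by 2.64 ± 0.221 (12.85, 12.70 and 12.56 against 10.30, 9.72 and 10.16). Dbp was named after its values were seen. Lpar6, a lysophosphatidic acid receptor, read 14.69, 14.71 and 13.08 against 10.29, 10.16 and 10.31 (−3.90 ± 0.466, adjusted p = 0.0154; 0.0499 with the block; called in 2 of 6, highest 0.0837 without acute CpG replicate 2). Rab3il1, an exchange factor of Rab proteins, read 13.64, 13.97 and 13.60 against 10.52, 11.22 and 10.29 (−3.07 ± 0.29, adjusted p = 0.00873; called in 4 of 6, highest 0.0539 without acute CpG replicate 1). Frat1, a regulator of Wnt signaling, read 9.20, 8.99 and 6.43 against 4.69, 4.02 and 3.46 (−4.15 ± 0.793, adjusted p = 0.0406; 0.0494 with the block; called in 1 of 6, highest 0.142 without acute CpG replicate 2), and was well above background on 1 CpG array only. The naïve replicate 3 array was again nearer the CpG arrays for Frat1 and Lpar6.

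Other named genes fell by like amounts. Zfp36l2, which promotes mRNA decay, read 15.06, 15.03 and 13.93 against 12.27, 12.09 and 10.90 (−2.92 ± 0.486, adjusted p = 0.0304; called in 1 of 6, highest 0.12 without naïve replicate 2). Rasgrp3, an activator of Ras, fell by 3.19 ± 0.403 (adjusted p = 0.0177; 0.062 with the block; called in 2 of 6, highest 0.0895 without acute CpG replicate 2), and Engase, a glycosidase, by 3.1 ± 0.407 (adjusted p = 0.019; called in 2 of 6, highest 0.0895 without acute CpG replicate 2). Zfyve28 and Zfp395 fell by 3.16 ± 0.529 and 3.35 ± 0.507, but of the 4 tested probes of each gene 1 was called, these calls held in 1 and 2 of 6 fits, and Zfp395 was well above background on 1 CpG array only. Npas4 and Dchs1 were not well above background on any CpG array and were at least 8.80-fold and 8.60-fold lower (adjusted p = 0.0312 and 0.0468; 0.055 and 0.106 with the block; each called in 1 of 6, highest 0.12 and 0.16 without naïve replicate 2). These bounds too hold for the authors' values only. Over all settings fitted, the smallest log2 difference of Dchs1 was −0.946, and another background correction lost its call. Also among the 12 largest falls was the pseudogene Hmga2-ps1 (−2.93 ± 0.57, adjusted p = 0.0424; 0.0844 with the block; called in 1 of 6, highest 0.15 without acute CpG replicate 2), whose probe may also bind transcripts of related sequence.

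DNA repair genes gave 5 of 26 lower and 0 higher (median log2 difference −0.69). The mismatch repair gene Msh6 read 10.71, 10.79 and 10.51 against 9.16, 8.95 and 9.35. It fell by 1.52 ± 0.192 (adjusted p = 0.0177; 0.0565 with the block; called in 2 of 6, highest 0.0923 without naïve replicate 2). Chek2, a checkpoint kinase, and Exo1, an exonuclease, fell by 1.54 ± 0.261 and 1.5 ± 0.28 (adjusted p = 0.0312 and 0.0388, and 0.0492 and 0.0811 with the block; called in 2 and 1 of 6). Xpc, which recognizes DNA damage, was also called lower, in 1 of 6 fits and not with the block (adjusted p = 0.0515). Of 41 replication and mitosis genes 2 fell and 0 rose (median −0.58), Ccnd1, which encodes cyclin D1 (−1.53 ± 0.26, adjusted p = 0.0312; 0.052 with the block; called in 2 of 6, highest 0.129 without acute CpG replicate 2), and E2f1 (−0.92 ± 0.192, adjusted p = 0.05, just under the threshold before rounding; called in 1 of 6, highest 0.185 without naïve replicate 2). These lists had their lowest naïve mean on naïve replicate 3, 8.19 for repair and 9.34 for replication, against 8.68 and 10.08 or more on the other naïve arrays. The acute CpG means were 7.69, 7.92 and 8.07 for repair and 9.15, 9.51 and 9.34 for replication, so the groups overlapped for replication and naïve replicate 3 stood level with acute CpG replicate 3. Without it 7 repair and 8 replication genes were called lower, and with the block 1 and 0.

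Genes of macrophage identity gave few calls, 1 higher and 2 lower of 28, against 2.95% and 2.86% of all gene names. Their median log2 difference was −0.34 (lowest −2.51, highest 4.33), with 22 lower and 6 higher. Without naïve replicate 3, 3 were called higher and 5 lower, and with the block none was called. Of 28 identity genes 1 rose, the scavenger receptor Msr1 (1 of its 2 probes called; 1.48 ± 0.262, adjusted p = 0.0337; 0.0728 with the block; called in 2 of 6, highest 0.132 without naïve replicate 2), and 2 fell, among them Tgfbr2, a receptor of TGF-β (1 of its 2 probes called; −0.95 ± 0.195, adjusted p = 0.0487; 0.0875 with the block; called in 1 of 6, highest 0.18 without naïve replicate 2). Csf1r, the growth factor receptor of macrophages, read 18.07, 18.04 and 17.87 against 17.89, 18.06 and 17.54, with overlapping groups (−0.17 ± 0.203, adjusted p = 0.675), and its sign turned with 75th percentile scaling (0.0908). None of 44 respiratory chain genes, 23 of the tricarboxylic acid cycle and 38 of the cytosolic ribosome was called by limma. The medians of the respiratory chain (−0.24) and the ribosome (−0.12) turned positive with 75th percentile scaling (0.13 and 0.20), so no direction is given for them. Lysosomal genes gave 1 of 27 lower (median −0.25, and 0.06 with that scaling).

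Probes for long intergenic noncoding regions made up 5328 of the tested probes. Of these 114 rose and 67 fell, 3.40% in all against 6.26% of the 22626 other probes. A group on chromosome 16 carried the largest rises, named after its values were seen. The array has 13 probes there, 11 were tested, and 10 rose, each in the robust set. In region chr16:84708695-84708806 (mm9, forward strand) the probe read 2.51, 2.18 and 3.39 in naïve cells and 11.59, 11.38 and 11.52 after CpG (8.80 ± 0.335, adjusted p = 0.000891). In chr16:84702353-84710928 probes of both strands rose, the highest of the reverse strand from 3.18, 1.53 and 3.95 to 10.85, 10.78 and 10.85 (7.94 ± 0.599). The 3 CpG arrays lay close together in both. The files name no gene for these probes. Region chr7:16633756-16634410 (forward strand) held the largest fall of the robust set, from 10.23, 10.40 and 9.70 to 6.43, 6.84 and 6.67 (−3.46 ± 0.249, adjusted p = 0.00432).

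To see which of these changes differed from those of other ligands, acute CpG was compared with acute Poly(I:C), a TLR3 ligand, at the same time point and on the same 3 slides. Of 26534 probes tested, 46 were called (0.173%), 23 higher after CpG (0.0867%) and 23 lower (0.0867%), with 3692 at an unadjusted p under 0.05. Il12b read 15.14, 14.63 and 14.88 after CpG and 10.57, 10.58 and 10.17 after Poly(I:C) (4.44 ± 0.216, adjusted p = 0.0132). Ptgs2 read 8.81, 8.73 and 9.64 after Poly(I:C) and was higher after CpG by 5.48 ± 0.30 (adjusted p = 0.0138). Il1b (7.19 ± 0.65, adjusted p = 0.0384), Cxcl1 (7.30 ± 0.79, adjusted p = 0.0455), Fosl1 (2.90 ± 0.246, adjusted p = 0.0384), Maff (2.55 ± 0.214, adjusted p = 0.0384) and Nlrp3 (2.16 ± 0.242, adjusted p = 0.0483) were also higher after CpG. Of the 23 probes lower after CpG, 15 were not well above background on any CpG array. Between CpG and naïve cells, 10 of these 23 were not tested because too few arrays detected them, and none of the other 13 was called lower. Both comparisons use the same 3 CpG arrays.

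These calls were few and their number changed with the array left out, where the fit also has less power. With the replicate block 0 were called (5432 at an unadjusted p under 0.05), and 0 without acute CpG replicate 1 or 2 or Poly(I:C) replicate 1 or 2. There were 535 without Poly(I:C) replicate 3 and 857 without acute CpG replicate 3. Type I interferon genes were lower after CpG by a median of 1.55, though 0 of 44 were called. Rsad2 read 18.03, 17.96 and 17.51 after Poly(I:C), above all 3 CpG arrays (CpG minus Poly(I:C) −2.55 ± 0.832, adjusted p = 0.255). Il6 (2.61 ± 0.706, adjusted p = 0.204), Tnf (2.87 ± 0.545, adjusted p = 0.119) and Ccl5 (0.27 ± 0.395, adjusted p = 0.882) were not called between the ligands. Against acute Pam3CSK4, a TLR2 ligand with 2 arrays, limma called 0 of 25399 probes (882 at an unadjusted p under 0.05). The 2 Pam3CSK4 arrays lay far apart, for example at 15.85 and 11.11 for Il1b and 17.40 and 13.40 for Ccl5.

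**Figure D5:**
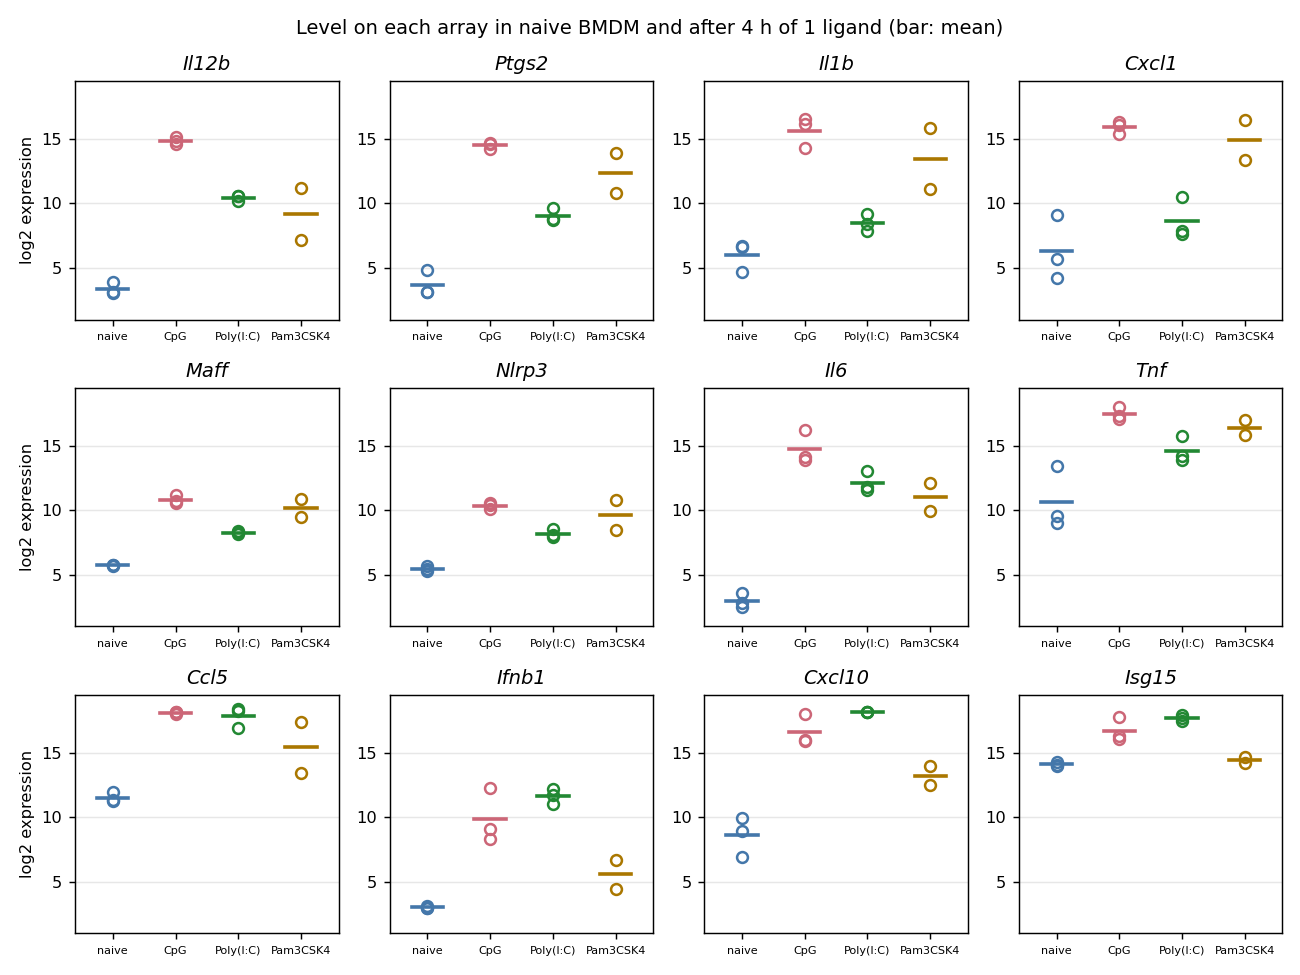
Log2 expression of 12 genes in naïve BMDM and after 4 h of CpG, Poly(I:C) or Pam3CSK4 (points are arrays, bars are means; n = 3, and 2 for Pam3CSK4). The CpG points of Il12b, Ptgs2, Il1b, Cxcl1, Maff and Nlrp3 lie above all Poly(I:C) points. So do those of Il6 and Tnf, which were not called between the ligands, while those of Isg15 do not lie above all of them.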

How the data were processed

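RNA of 3 naïve and 3 acute CpG BMDM cultures was hybridized to Agilent 1-colour arrays and scanned with Feature Extraction 10.7.3.1. Per the methods, the authors made the deposited log2 values with limma from the scanner intensities by RMA background correction and quantile normalization. The deposited scanner intensities gave the detection flags, probe positions (mm9) and array names, and served for the alternatives. Rebuilding the deposited log2 values from the intensities gave a median difference of 0.0354 per value (largest 0.113).

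Groups were taken from the labels. Differences were tested with lmFit and eBayes of limma 3.58.1 (R 4.3.3), two-sided, with Benjamini-Hochberg adjustment over the 27954 tested probes, and tables were made with Python 3.11.15 and pandas 2.3.3. Each comparison used its own groups. Symbols of 26762 probes were matched to RefSeq and 3517 were updated. The fit was tested on simulated data with known changes. Arrays give no read depth, no spot was saturated, and the number of arrays limits the precision. The methods describe replicates both as different mice and as independent pools of marrow, so p-values measure the spread between these cultures.

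Replicate numbers come from the labels and coincide with 3 slides of 1 scan day. Over the tested probes, deviations from the group means correlated positively between arrays of the same number (r = 0.28, 0.36 and 0.31). Between others r was −0.27 to 0.03. Deviations from a mean cancel out within a group, so these values are not independent of each other. The number was taken as pairing the arrays and used as a block in an alternative fit.

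Genes were named by a rule: the 12 largest rises and falls among called symbols, the 4 largest calls in each direction and the 2 highest uncalled genes of each list, genes that the study discusses, and Tlr9. The probe with the highest mean represents a gene. The comparison, the 35 gene lists and the markers were chosen with earlier results of these data known. Alternatives were another background correction or scaling, other detection filters, no minimum change, the block, a fit over all 9 groups, trended robust moderation, and leaving out each array. Some genes that met the rule are not reported here.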

Additional observations from a re-analysis of the deposited data

How the results depend on the processing

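Of the 1598 probes called between acute CpG and naïve BMDM, the number became 2574 with normexp correction, 2453 with 75th percentile scaling, 412 with no detection filter, 586 with the replicate block, 4648 in a fit over all 9 groups, 2481 with trended robust moderation and 108 (without acute CpG replicate 2) to 2881 (without naïve replicate 3) with an array left out. It was 1588 with rebuilt values and 1925 for probes detected on all arrays of a group. Against Poly(I:C), the 46 calls became 2 with no detection filter, 88 for probes detected on all arrays, 0 with the replicate block, 1344 over 9 groups, 118 with trended robust moderation, and 0 to 857 with an array left out. Against Pam3CSK4, 11 were called over 9 groups. The list members called were 65 with no detection filter, 69 with the block, 261 over 9 groups and 22 to 193 with an array left out, and the markers 7 over 9 groups and 0 to 5. With 75th percentile scaling the log2 difference of Unc93b1 was 0.12 and that of Csf1r 0.0908, the reverse of their sign in the report. Of the 95 named genes that were called, 761 refits under other settings kept the call and 94 lost it, and 274 kept and 296 lost it with an array left out. Dropping the minimum change cannot lose a call, and that setting gave 95 of the 761 kept. With 75th percentile scaling 6 of the named genes lost their call, among them Il1a, Csf3 and Ticam2. With rebuilt values 2 lost it, among them Rsad2. The cause of these changes was not tested. With 3 arrays a group, an uncalled difference is not shown to be absent, and signals near background have no reliable order.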

Other observations

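Receptors for purines and lipids moved both ways, 5 of 22 higher and 2 lower, and 2 each way with the block. Adora2a, an adenosine receptor, was in the robust set, at 4.34, 5.11 and 4.92 in naïve cells and 11.09, 11.22 and 10.13 after CpG (6.03 ± 0.37, adjusted p = 0.00287). Gpr84, a receptor of medium-chain fatty acids, rose by 5.68 ± 0.533 (adjusted p = 0.00862; called in 3 of 6 fits with an array left out), and Hcar2, the niacin receptor (Niacr1 on the array), by 5.83 ± 1.07 (adjusted p = 0.0362; 0.0938 with the block; called in 1 of 6). P2ry1, an ADP receptor, fell by 1.82 ± 0.292 (adjusted p = 0.0283; 0.0761 with the block; called in 1 of 6). P2ry6, a UDP receptor, was not called, at 14.39, 14.69 and 14.26 against 13.03, 13.47 and 11.80 (−1.68 ± 0.445, adjusted p = 0.0876), though the groups did not overlap.

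Matrix proteases and their inhibitors gave 4 of 19 higher and 0 lower. Adamts4, which cleaves aggrecan, rose by 7.67 ± 0.92 (adjusted p = 0.0154; 0.0617 with the block; called in 2 of 6), Serpinb2 by 6.56 ± 0.882 (adjusted p = 0.02; called in 2 of 6) and the urokinase receptor Plaur by 1.51 ± 0.162 (adjusted p = 0.0121; called in 2 of 6). Of 21 SOCS and JAK-STAT genes 5 rose and 0 fell, and 2 rose with the block. Socs3, which blocks signaling of IL-6, read 7.14, 7.82 and 11.15 against 16.70, 16.75 and 15.16 (adjusted p = 0.0239; 0.069 with the block; called in 2 of 6), with naïve replicate 3 the highest naïve array. Socs1 read 8.10, 7.62 and 7.59 against 11.60, 11.90 and 13.69 (4.63 ± 0.567, adjusted p = 0.0163; 0.0536 with the block; called in 2 of 6). Among apoptosis and survival genes 6 of 26 rose and 1 fell, and 3 rose with the block. Traf1, an adapter of TNF receptors, was in the robust set (4.75 ± 0.349, adjusted p = 0.00459), and Casp9, an initiator caspase, fell by 1.35 ± 0.197 (adjusted p = 0.0235; 0.0509 with the block; called in 2 of 6).

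Zbtb46, a transcription factor of dendritic cells, read 4.31, 4.73 and 3.11 against 7.27, 7.75 and 7.55 (3.47 ± 0.436, adjusted p = 0.0177), while the other 3 tested dendritic cell markers were not called. Pdgfrb, a stromal marker, was not well above background on any naïve array and was at least 27.4-fold higher after CpG (adjusted p = 0.0167). Both were called in 3 of the 6 fits with an array left out. Ch25h, which makes 25-hydroxycholesterol, was the called gene among 27 of cholesterol synthesis and efflux (5.71 ± 0.753, adjusted p = 0.0191; called in 1 of 6), and Cfb, complement factor B, that among 16 complement genes (4.24 ± 0.401, adjusted p = 0.00873; called in 4 of 6). Of 19 prostaglandin and leukotriene genes 2 rose and 0 fell, Ptgs2 and the phospholipase Pla2g4a (0.94 ± 0.185, adjusted p = 0.0429; 0.0796 with the block; called in 1 of 6). The list of NRF2 targets and metal handling also holds the acute phase gene Saa3. Of its 22 tested genes 2 rose and 0 fell, and 0 with the block, the zinc carrier Slc39a14 (3.65 ± 0.494, adjusted p = 0.0204; called in 2 of 6) and Saa3. The acute phase gene Saa3 read 9.77, 10.07 and 13.51 against 16.92, 17.78 and 16.75 (6.03 ± 1.02, adjusted p = 0.031; 0.069 with the block; called in 1 of 6), with naïve replicate 3 above the other naïve arrays.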
